A study of Homo sapiens with 30 samples.

Results

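The MYC network is a set of transcription factors that pair through a basic helix-loop-helix leucine zipper. MYC and its relative MYCN bind DNA as heterodimers with MAX and activate genes of growth and ribosome production. The MXD proteins (MXD1, MXI1, MXD3 and MXD4) and MNT pair with the same MAX and repress such genes through SIN3 corepressors, MGA pairs with MAX in another repressive complex, and MLX is the MAX-like partner of the glucose-sensing factors MLXIP and MLXIPL. In prostate cancer MYC is a widely studied driver, and inhibitors of BET bromodomain proteins are known to lower its transcription in several cancers. The 10 genes described here, MYC, MYCN, MAX, MXI1, MXD1, MXD3, MXD4, MNT, MGA and MLX, were chosen by symbol out of 23710 gene symbols in the count files and 23616 in the FPKM files. MYCN had 0 reads and an FPKM of 0 in all 30 samples and was tested nowhere, which leaves 9 measured members.

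RNA was sequenced from V16D, a castration-resistant prostate cancer line of LNCaP origin, and from MR49F, an enzalutamide-resistant line of LNCaP origin. Cells of both lines were kept for 96 h without enzalutamide beforehand, and each treatment lasted 24 h. In full serum, V16D and MR49F received 10 µM of the antiandrogen enzalutamide or 0.1% DMSO as vehicle. In charcoal-stripped serum, which is depleted of steroids, MR49F cells were held for 72 h and then given vehicle (0.1% DMSO and 0.1% ethanol), 10 µM enzalutamide, 1 nM of the androgen DHT, 500 nM of the BET inhibitor JQ-1, enzalutamide plus JQ-1, or DHT plus JQ-1. Each of the 10 groups had 3 samples. The study's methods call the samples of a group biological replicates, each made from a pair of combined wells, and the labels speak of plating in triplicate. How far apart the replicates were grown is not given in the sources used here, so p-values measure the spread between these samples.

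The luminal markers were present in every group, with mean FPKM of 114 to 523 for the keratin KRT8 and 58.4 to 165 for HOXB13. Group means of the basal markers KRT5, KRT14 and TP63 reached at most 0.246, and those of the stromal and immune markers COL1A2, DCN and PTPRC at most 0.0601, while COL1A1 and CD68 reached 1.65 and 5.93. Reads counted on genes numbered 13170504 to 21154962 per sample in full serum. In stripped serum they numbered 982130 to 1813262, or 5.13% to 7.66% of the reads given to a gene or to no feature, against 73.0% to 77.8% in full serum. The kit keeps the strand of each read, but the sources used here do not say how strand was treated when reads were counted. Reads on no feature made up 92.2% to 94.8% in stripped serum, against 20.2% to 25.3% in full serum. Whether the stripped serum counts hold reads of the opposite strand was not tested. The members' changes in stripped serum are therefore given by counts and by FPKM (reads scaled by transcript length and library size), the second reading. Target and cofactor genes are named below with their count values, and each of these changes was also called in the same direction by FPKM. Replicate 1 of MR49F vehicle in full serum stood apart from its group, and results that rest on it are given with and without it.

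Dimers of MAX with MYC, MXD proteins or MNT recognise the E-box CACGTG, a palindrome. In RefSeq promoters (GRCh38.p14), the 250 bases before the transcription start held it in MXD4, MNT and MLX and in none of the windows of MYCN, MAX, MXI1, MXD1, MXD3 and MGA. MYC was not searched. Of 27305 genes, 7.73% had the motif in a promoter window of this length. The windows of these 3 members are shown because they hold the motif, on the strand of the gene and with the E-box in capitals. All 3 passed the count tests of JQ-1 below, with MXD4 higher and MNT and MLX lower. MXD1 and MXD3, whose windows lack the motif, passed them too. Of all genes 46.6% passed with JQ-1 alone, 45.1% with JQ-1 on enzalutamide and 54.7% with JQ-1 on DHT. The motif starts 238 bases before the start in MXD4 at chr4:2262110-2262359 (minus strand), 193 in MNT at chr17:2401061-2401310 (minus strand) and 50 in MLX at chr17:42566850-42567099 (plus strand). A match of letters is a description, not a bound site.
MXD4: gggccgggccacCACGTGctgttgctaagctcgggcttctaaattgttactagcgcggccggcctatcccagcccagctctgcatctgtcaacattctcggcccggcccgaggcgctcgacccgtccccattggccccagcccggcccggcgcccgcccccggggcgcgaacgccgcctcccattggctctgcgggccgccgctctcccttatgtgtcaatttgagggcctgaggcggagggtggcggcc
MNT: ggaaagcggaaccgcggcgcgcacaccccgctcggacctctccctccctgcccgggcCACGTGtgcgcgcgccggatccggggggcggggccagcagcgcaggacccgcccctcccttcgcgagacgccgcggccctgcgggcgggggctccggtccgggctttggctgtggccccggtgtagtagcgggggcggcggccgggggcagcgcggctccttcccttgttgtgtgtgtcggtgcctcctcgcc
MLX: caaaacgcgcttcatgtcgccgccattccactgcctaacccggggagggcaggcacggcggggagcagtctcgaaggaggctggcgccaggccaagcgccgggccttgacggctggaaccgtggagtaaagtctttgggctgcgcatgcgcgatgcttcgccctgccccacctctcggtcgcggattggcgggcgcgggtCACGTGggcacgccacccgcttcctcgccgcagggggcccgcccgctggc

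MXD3 was the member whose counts and FPKM parted between the sera. Relative to the median of 11157 genes, its counts per FPKM were 154 times higher in stripped than in full serum, while the other measured members lay between 0.688 and 1.80 times. The MXD3 gene (GRCh37, chr5:176728462-176739758, minus strand) shares 1148 of its 4743 exonic bases with PRELID1 on the opposite strand. In MR49F vehicle samples, MXD3 had 24.2 CPM (reads scaled to a common total of counted reads) in full and 1165 in stripped serum, and PRELID1 had 75.8 and 206. For MXD3 the FPKM is therefore given first, beside a count that may not follow the gene. Whether its FPKM follows the gene was not tested either. In full serum its 24.2 CPM stood beside 56.8 FPKM, where MLX had 122 CPM and 40.2 FPKM. PRELID1 had 80.8 FPKM in full and 67.4 in stripped serum. MLX (chr17:40719090-40725257, plus strand) shares 775 of 4255 exonic bases with PSMC3IP, which had 25.6 CPM in full and 248 in stripped serum, and MAX (chr14:65472892-65569413, minus strand) shares 822 of 6257 with FNTB. The part of these overlaps in the results was not tested. No exonic bases opposite another gene were found for MYC (chr8:128747680-128755197, plus strand), MXI1 (chr10:111967363-112047123, plus strand), MXD1 (chr2:70124820-70170077, plus strand), MXD4 (chr4:2249159-2263836, minus strand), MNT (chr17:2287367-2304398, minus strand) or MGA (chr15:41913332-42065279, plus strand).

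Per length, MYC was the most abundant transcript of the network in MR49F cells under stripped serum vehicle, at 66.5 ± 1.87 FPKM (SD, n = 3), followed by MXD4 at 55.7 ± 1.33. MLX at 28.6 ± 0.959 and MAX at 26.0 ± 1.79 came next, and MXD3 stood at 20.1 ± 1.35 and MXI1 at 14.1 ± 0.874. The scarcest were MGA at 7.22 ± 0.318, MNT at 6.22 ± 0.0271 and MXD1 at 2.68 ± 0.118 FPKM. With JQ-1 the order of MYC and MXD4, the leading pair under stripped serum vehicle, changed. MXD4 was below MYC in all 12 full serum samples and all 9 stripped serum samples without JQ-1, and above MYC in all 9 samples with JQ-1. The ratio of MXD4 to MYC FPKM was 0.263 to 0.331, 0.429 to 0.853 and 1.86 to 3.41 in these sets.

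**Figure D1:**
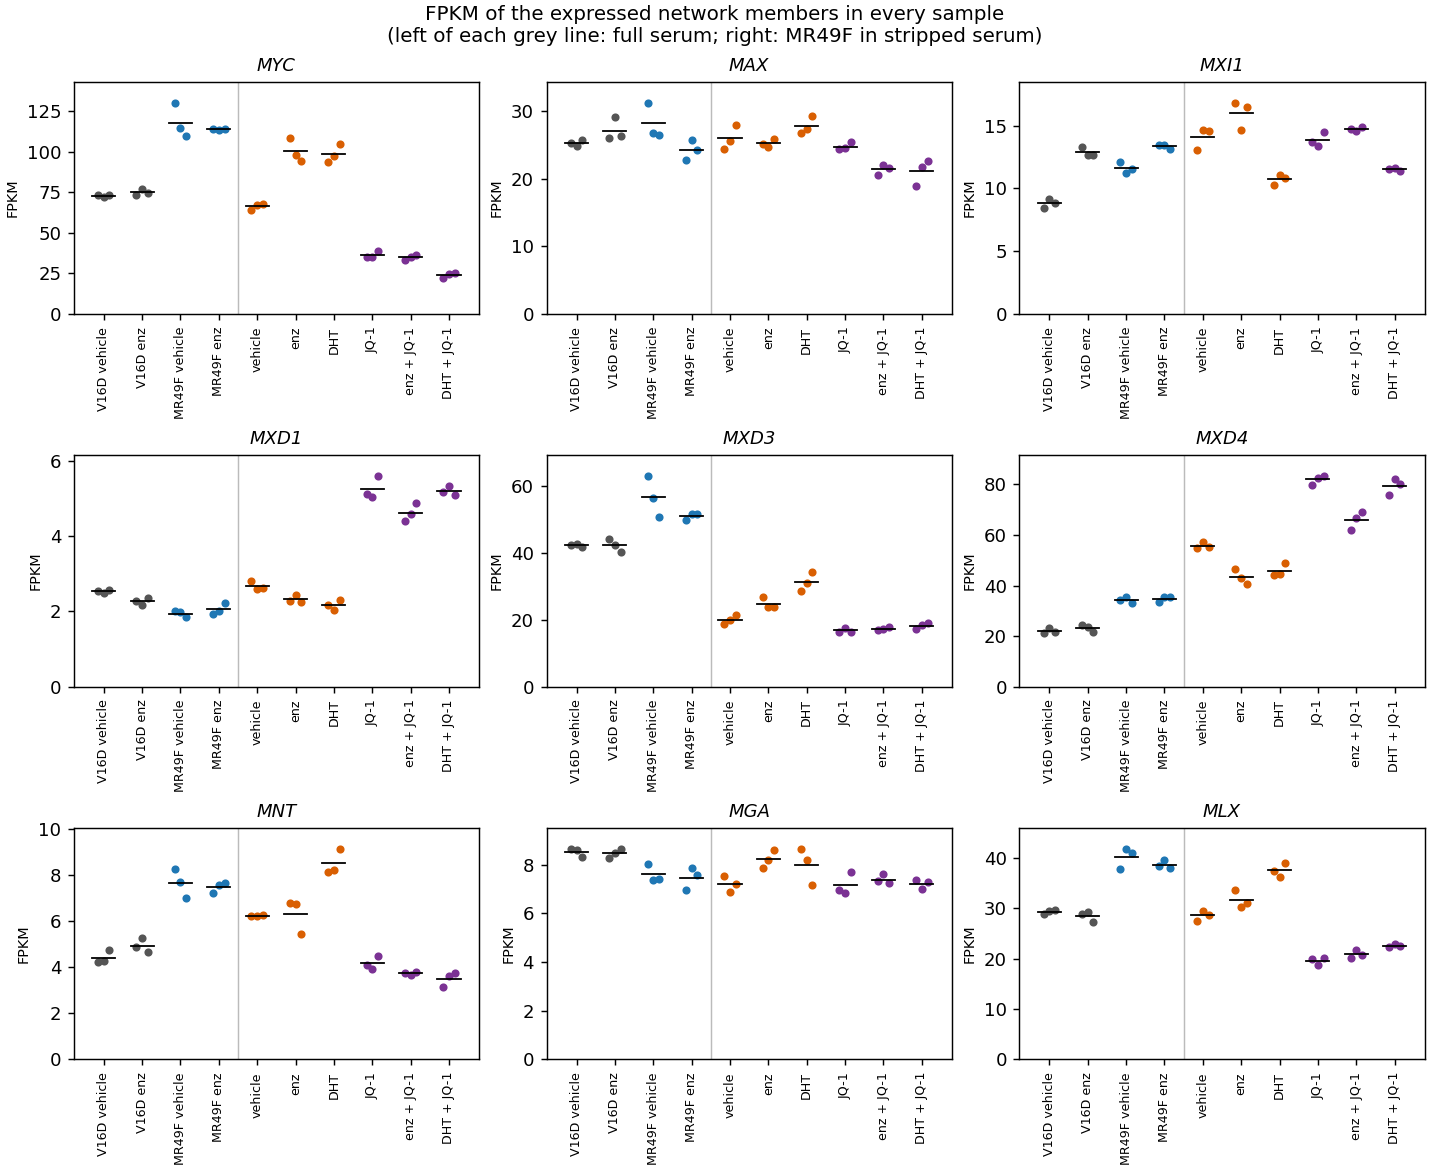
FPKM (vertical axes) of the 9 measured members in each of the 30 samples, with 1 point per sample and a bar at each group mean, full serum left and stripped serum right of the grey line. In stripped serum MYC lies at 22.2 to 38.7 in the 9 samples with JQ-1 and at 64.4 to 108 in the 9 without.

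Across the 10 groups, MYC was lowest with DHT plus JQ-1 at 24.1 ± 1.72 FPKM. Enzalutamide plus JQ-1 (34.9 ± 1.58) and JQ-1 alone (36.4 ± 1.98) followed, with overlapping samples. Stripped serum vehicle, V16D vehicle (73.0 ± 0.721) and V16D with enzalutamide (75.0 ± 1.82) came next, the V16D groups overlapping each other. DHT (98.8 ± 5.63) and enzalutamide (100.3 ± 7.27) in stripped serum overlapped, and MR49F in full serum was highest, at 114 ± 0.467 with enzalutamide and 118 ± 10.7 with vehicle, again overlapping. Serum, plating and vehicle differed between the experiments and cannot be told apart, so levels across sera are set side by side without a test.

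The first comparison set the resistant line against V16D under vehicle in full serum. MYC, the repressors MNT, MXD4 and MXI1, and MLX were higher in MR49F, and MXD1 and MGA were lower. Of 9 members, 7 passed edgeR's quasi-likelihood test with Benjamini-Hochberg adjustment over all genes, against 63.7% of all genes. In bulk RNA, fewer expressing cells and less RNA per cell cannot be told apart.

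MYC was at 229, 225 and 227 CPM (scaled by TMM, as in all values below) in V16D and 421, 353 and 334 in MR49F. The lines did not overlap, and MR49F replicate 1 was the highest. For log2 changes, here and below, ± gives a standard error. The log2 fold change was 0.69 ± 0.07 (edgeR adjusted p = 4.78e-06) with a fold of 1.62, and 0.60 ± 0.03 (edgeR adjusted p = 8.04e-32) without that replicate. MNT, a widely expressed MAX-bound repressor, was at 29.4, 29.4 and 32.1 CPM in V16D and 58.0, 51.5 and 47.1 in MR49F. Its groups were separate, with a log2 fold change of 0.78 ± 0.08 (edgeR adjusted p = 3.73e-06). MXD4 was at 109 to 117 CPM in V16D and 166 to 181 in MR49F, a log2 fold change of 0.64 ± 0.05 (edgeR adjusted p = 7.57e-07).

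MXI1 and MLX were also separate between the lines. MXI1 was at 36.2, 39.1 and 37.4 CPM in V16D and 54.6, 48.7 and 48.9 in MR49F, a log2 fold change of 0.42 ± 0.06 (edgeR adjusted p = 9.74e-05). For MLX the log2 fold change was 0.47 ± 0.05 (edgeR adjusted p = 4.05e-06). MXD1, a repressor known from differentiating cells, went the other way, from 19.8, 19.2 and 19.8 CPM in V16D to 16.1, 15.2 and 13.8 in MR49F, with a log2 fold change of -0.38 ± 0.08 (edgeR adjusted p = 0.00114). MGA differed by -0.16 ± 0.06 (edgeR adjusted p = 0.0298) with overlapping samples, a call lost without MR49F replicate 2 or 3 or V16D replicate 1 or 2 (edgeR adjusted p up to 0.127). MAX had a value of 0.13 (edgeR adjusted p = 0.15). For MXD3 the FPKM value was 0.41 ± 0.08 (limma adjusted p = 0.00388) and the count value -0.01 (edgeR adjusted p = 0.895).

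With enzalutamide in V16D cells, the MYC antagonist MXI1 rose, and MYC did not pass the test. Of 9 members, 2 passed, against 37.5% of all genes. MXI1 was at 36.2, 39.1 and 37.4 CPM with vehicle and 54.7, 52.2 and 53.4 with enzalutamide. All treated samples were above all vehicle samples, a 1.42-fold rise (log2 0.50 ± 0.05, edgeR adjusted p = 1.62e-22). MXD1 fell by 0.19 ± 0.07 (edgeR adjusted p = 0.0232) on the log2 scale, a call lost in 4 of 6 fits that left out 1 sample (enzalutamide replicate 1 or 2, vehicle replicate 1 or 3, edgeR adjusted p up to 0.105), and its FPKM value was -0.11 ± 0.04 (limma adjusted p = 0.0953). MYC was at 229, 225 and 227 CPM with vehicle and 224, 234 and 229 with enzalutamide, which overlapped, and the 95% interval of the log2 difference was -0.04 to 0.06.

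In MR49F cells in full serum, 0 of 9 members passed with enzalutamide by edgeR, against 8.48% of all genes, and 0 by DESeq2 or by limma on FPKM, against 4.6% by limma. At an unadjusted p under 0.05 there were 2 by edgeR, MAX and MXI1. MXI1 was at 54.6, 48.7 and 48.9 CPM with vehicle and 56.5, 56.3 and 55.7 with enzalutamide. These groups did not overlap, and the log2 difference was 0.15 ± 0.06 (edgeR adjusted p = 0.117). Without vehicle replicate 1, MXI1 had 0.20 ± 0.05 (edgeR adjusted p = 0.00236) and MLX -0.13 ± 0.04 (edgeR adjusted p = 0.0148), both called, while 17.8% of all genes were. MAX was called without vehicle replicate 3 (edgeR adjusted p = 0.038).

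The MXI1 response to enzalutamide was smaller in MR49F than in V16D. The difference between the log2 fold changes was -0.36 ± 0.07 (edgeR adjusted p = 0.00275), and -0.30 ± 0.07 (edgeR adjusted p = 0.000746) without MR49F vehicle replicate 1. MXI1 was the 1 member of 9 called in this interaction, against 6.95% of all genes.

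**Figure D2:**
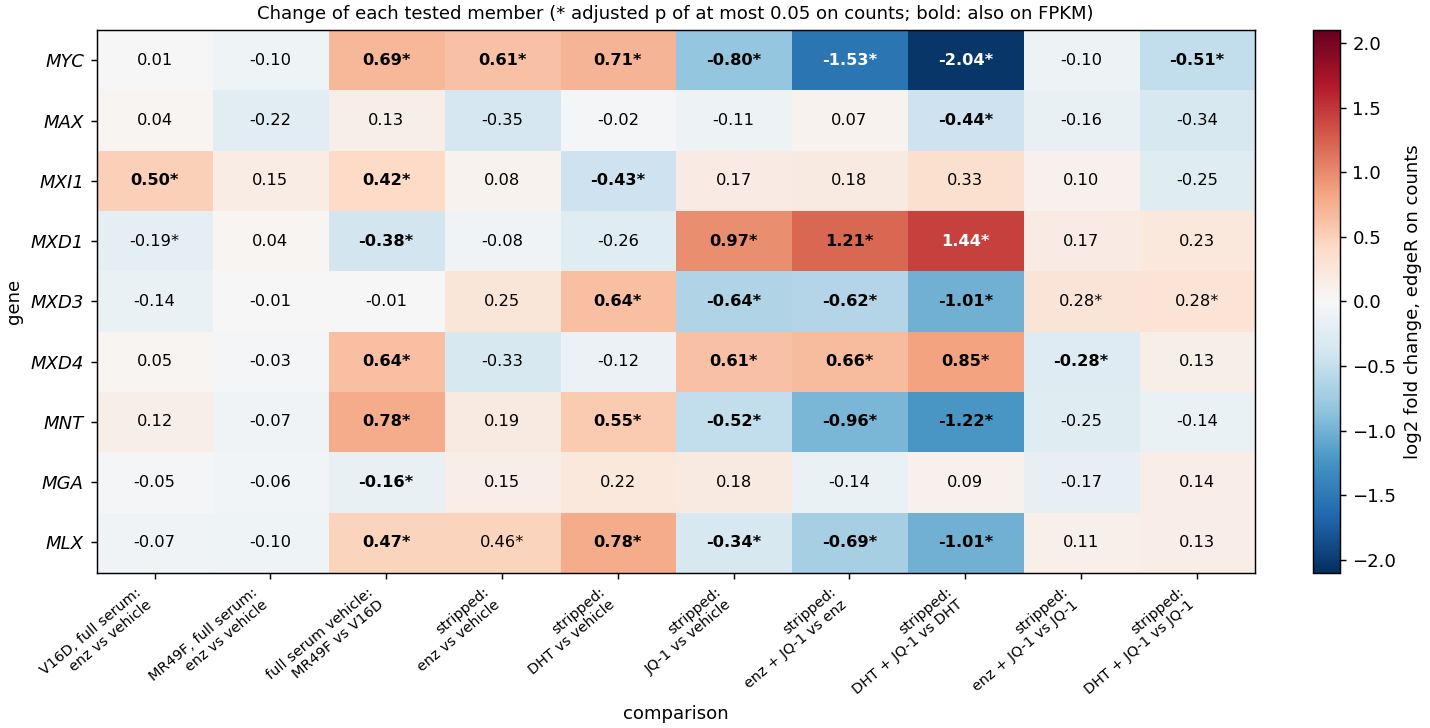
Log2 fold changes by edgeR on counts (colour and printed value) of the 9 measured members (rows) in 10 comparisons (columns), with an asterisk for an adjusted p of at most 0.05 and bold where FPKM also passed. In the columns for JQ-1 alone, on enzalutamide and on DHT, MYC, MNT and MLX are lower and MXD1 and MXD4 higher. Values there run from -2.04 for MYC to 1.44 for MXD1, both on DHT.

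In stripped serum, where the antiandrogen was set beside an androgen in the resistant line, both ligands raised MYC. The rise was 1.53-fold with enzalutamide and 1.63-fold with DHT, and MLX rose with each by counts. DHT also raised MNT and lowered MXI1, the latter not called by DESeq2. Of 9 members, 2 passed with enzalutamide and 5 with DHT by counts, against 7.26% and 37.5% of all genes. By FPKM 4 and 7 passed, against 38.7% and 72.1%. Both comparisons use the same vehicle samples.

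MYC was at 226, 251 and 238 CPM with vehicle, 395, 372 and 319.6 with enzalutamide and 365, 394 and 412 with DHT. Neither ligand group overlapped vehicle, and the ligand groups overlapped each other. The log2 fold change was 0.61 ± 0.10 (edgeR adjusted p = 0.000421) with enzalutamide and 0.71 ± 0.09 (edgeR adjusted p = 9.43e-07) with DHT. By FPKM these were 0.58 ± 0.06 (limma adjusted p = 6.9e-05) and 0.56 ± 0.05 (limma adjusted p = 1.1e-05). DHT minus enzalutamide was 0.08 (edgeR adjusted p = 0.61) for MYC, with a 95% interval of -0.11 to 0.27.

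MLX was at 124, 134 and 143 CPM with vehicle, 176, 177 and 198 with enzalutamide and 227, 239 and 226 with DHT. The 3 groups were separate. With enzalutamide the log2 fold change was 0.46 ± 0.10 (edgeR adjusted p = 0.00913) by counts, lost without vehicle replicate 1 (edgeR adjusted p = 0.0818), and 0.14 ± 0.05 (limma adjusted p = 0.0506) by FPKM. With DHT, MLX rose by 0.78 ± 0.10 (edgeR adjusted p = 7.64e-07) on counts and 0.38 ± 0.04 (limma adjusted p = 5.93e-05) on FPKM.

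MNT was at 47.8, 46.8 and 51.3 CPM with vehicle and 71.5, 70.3 and 72.0 with DHT. The groups were separate, a log2 rise of 0.55 ± 0.13 (edgeR adjusted p = 0.00182) by counts and 0.39 ± 0.05 (limma adjusted p = 0.00015) by FPKM, while the enzalutamide samples at 43.0 to 63.2 CPM overlapped vehicle. MXI1 was lower with DHT, at 40.1, 37.9 and 33.8 CPM against 49.6, 41.9 and 59.3 with vehicle. Every DHT sample was below every vehicle sample. The log2 fold change of -0.43 ± 0.16 (edgeR adjusted p = 0.044) remained called only without vehicle replicate 2, and was lost without any other sample (edgeR adjusted p up to 0.182). By FPKM it was -0.36 ± 0.05 (limma adjusted p = 0.000298), and DESeq2 did not call it (DESeq2 adjusted p = 0.258).

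Set directly against enzalutamide, DHT gave less MXI1 and more MLX, among 3 members called by counts against 19.4% of all genes and 5 by FPKM against 57.4%. The log2 difference was -0.51 ± 0.15 (edgeR adjusted p = 0.0194) for MXI1, lost without DHT replicate 2 or 3 or enzalutamide replicate 2 (edgeR adjusted p up to 0.104). For MLX it was 0.31 ± 0.10 (edgeR adjusted p = 0.0274), lost without replicate 1 or 2 of either group (edgeR adjusted p up to 0.133). By FPKM these were -0.53 ± 0.06 (limma adjusted p = 6.23e-05) and 0.24 ± 0.05 (limma adjusted p = 0.0035). DESeq2 called neither MXI1 (DESeq2 adjusted p = 0.223) nor MLX (DESeq2 adjusted p = 0.0999). The third member was MXD3, also called by FPKM, with a count value of 0.38 (edgeR adjusted p = 0.0148, DESeq2 adjusted p = 0.0179). Its edgeR call was lost without DHT replicate 2 or enzalutamide replicate 1 or 2 (edgeR adjusted p up to 0.0981).

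MXD3, a repressor known from dividing cells, was at 18.8, 20.1 and 21.5 FPKM with vehicle, 26.9, 24.0 and 23.8 with enzalutamide and 28.8, 31.2 and 34.3 with DHT. The groups did not overlap. The FPKM log2 fold changes were 0.29 ± 0.06 (limma adjusted p = 0.00618) and 0.62 ± 0.07 (limma adjusted p = 5.87e-05), and the count values 0.25 (edgeR adjusted p = 0.24) and 0.64 ± 0.10 (edgeR adjusted p = 1.75e-05). MXD4 was lower with both ligands by FPKM, at 54.7, 57.2 and 55.2 with vehicle, 46.7, 43.0 and 40.5 with enzalutamide and 44.0, 44.6 and 49.0 with DHT. Its FPKM changes were -0.36 ± 0.05 (limma adjusted p = 0.00107) and -0.28 ± 0.05 (limma adjusted p = 0.000859), and its count values -0.33 (edgeR adjusted p = 0.0791) and -0.12 (edgeR adjusted p = 0.314). MAX did not pass with either ligand in either reading, at -0.35 (edgeR adjusted p = 0.154) and -0.02 (edgeR adjusted p = 0.908) by counts. FPKM alone also called MGA with enzalutamide, at 0.17 ± 0.05 (limma adjusted p = 0.0309), and MXD1 with DHT, at -0.21 ± 0.06 (limma adjusted p = 0.00898).

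JQ-1 moved members of the network in opposite directions. MYC, MNT and MLX fell, and the repressors MXD1 and MXD4 rose, whichever ligand was present. Of 9 members, 6 passed with JQ-1 alone, 6 on enzalutamide and 7 on DHT by counts, each called in both readings, and by FPKM 6, 8 and 7 passed. DESeq2 called 4 with JQ-1 alone, where MNT (DESeq2 adjusted p = 0.0857) and MLX (DESeq2 adjusted p = 0.0881) did not pass. The share of all genes called was 46.6%, 45.1% and 54.7% by counts, and 75.1%, 75.7% and 78.8% by FPKM.

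MYC went from 226, 251 and 238 CPM with vehicle to 127, 131 and 151 with JQ-1 alone. With enzalutamide and JQ-1 together it was at 122, 122 and 135, and with DHT and JQ-1 at 95.2, 95.6 and 95.3. In each setting all JQ-1 samples were below all samples without it. The falls were 1.75-fold, 2.89-fold and 4.11-fold, with log2 fold changes of -0.80 ± 0.09 (edgeR adjusted p = 3.83e-10), -1.53 ± 0.10 (edgeR adjusted p = 2.19e-12) and -2.04 ± 0.09 (edgeR adjusted p = 6.43e-20). By FPKM these were -0.85 ± 0.04 (limma adjusted p = 6.48e-07), -1.50 ± 0.06 (limma adjusted p = 7.29e-08) and -1.99 ± 0.06 (limma adjusted p = 4.21e-08).

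MXD1 was at 10.5, 16.8 and 8.01 CPM with vehicle and 21.6, 21.8 and 26.4 with JQ-1. These rest on 10 to 24 reads per vehicle sample and 33 to 46 per JQ-1 sample. The groups with and without JQ-1 were separate for each ligand. Log2 fold changes were 0.97 ± 0.25 (edgeR adjusted p = 0.00111) with JQ-1 alone, 1.21 ± 0.25 (edgeR adjusted p = 0.000279) on enzalutamide and 1.44 ± 0.26 (edgeR adjusted p = 1.62e-05) on DHT. By FPKM they were smaller, 0.77 ± 0.05 (limma adjusted p = 3.16e-06), 0.76 ± 0.06 (limma adjusted p = 3.26e-06) and 0.96 ± 0.05 (limma adjusted p = 6.1e-07) in that order. MXD4 was at 331, 321 and 313 CPM with vehicle and 466, 489 and 523 with JQ-1, and it too was separate in each setting. It rose by 0.61 ± 0.08 (edgeR adjusted p = 2.74e-09), 0.66 ± 0.11 (edgeR adjusted p = 1.24e-05) and 0.85 ± 0.08 (edgeR adjusted p = 2.87e-11) on the log2 scale in the same order, and by FPKM the changes were 0.55 ± 0.03 (limma adjusted p = 1.54e-06), 0.59 ± 0.06 (limma adjusted p = 2.14e-05) and 0.78 ± 0.05 (limma adjusted p = 2.15e-06).

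MNT, a repressor as well, fell. It was at 47.8, 46.8 and 51.3 CPM with vehicle and 32.9, 31.0 and 37.4 with JQ-1, and on DHT it went from 71.5, 70.3 and 72.0 to 32.5, 26.6 and 32.7. The groups did not overlap, and log2 fold changes were -0.52 ± 0.15 (edgeR adjusted p = 0.00497) with JQ-1 alone, -0.96 ± 0.18 (edgeR adjusted p = 8.74e-05) on enzalutamide and -1.22 ± 0.15 (edgeR adjusted p = 1.09e-08) on DHT. The FPKM values of MNT were -0.48 ± 0.05 (limma adjusted p = 3.92e-05), -0.62 ± 0.08 (limma adjusted p = 8.05e-05) and -1.08 ± 0.07 (limma adjusted p = 1.72e-06). MLX was at 122, 99.6 and 91.9 CPM with JQ-1 alone and 113, 106 and 127 with DHT and JQ-1, below the matched groups without JQ-1. It fell by 0.34 ± 0.11 (edgeR adjusted p = 0.00733) with JQ-1 alone, lost without JQ-1 replicate 3 (edgeR adjusted p = 0.0874), by 0.69 ± 0.11 (edgeR adjusted p = 5.53e-06) on enzalutamide and by 1.01 ± 0.10 (edgeR adjusted p = 5.37e-11) on DHT. The FPKM values of MLX were -0.52 ± 0.04 (limma adjusted p = 5.94e-06), -0.58 ± 0.05 (limma adjusted p = 7.89e-06) and -0.71 ± 0.04 (limma adjusted p = 7.27e-07), so with JQ-1 alone its fall was larger by FPKM than by counts.

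By FPKM, MXD3 fell by 0.24 ± 0.05 (limma adjusted p = 0.00302) with JQ-1 alone, 0.49 ± 0.05 (limma adjusted p = 3.21e-05) on enzalutamide and 0.75 ± 0.07 (limma adjusted p = 1.31e-05) on DHT, beside count values of -0.64, -0.62 and -1.01. MAX, the common partner, passed by counts on DHT, from 55.4, 55.3 and 66.2 to 41.8, 41.7 and 48.4 CPM. Its groups were separate, and the change of -0.44 ± 0.15 (edgeR adjusted p = 0.0105) was lost without DHT replicate 3 (edgeR adjusted p = 0.0747), beside -0.39 ± 0.07 (limma adjusted p = 0.000857) by FPKM. On enzalutamide the MAX readings had opposite signs, 0.07 (edgeR adjusted p = 0.75) by counts and -0.23 ± 0.04 (limma adjusted p = 0.000954) by FPKM. MXI1 and MGA did not pass by counts with JQ-1 alone or on either ligand, with values for MXI1 on DHT of 0.33 (edgeR adjusted p = 0.0753) and for MGA on enzalutamide of -0.14 (edgeR adjusted p = 0.383). FPKM called MGA on enzalutamide, at -0.14 ± 0.05 (limma adjusted p = 0.0324), and MXI1 in none of the 3 comparisons.

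**Figure D3:**
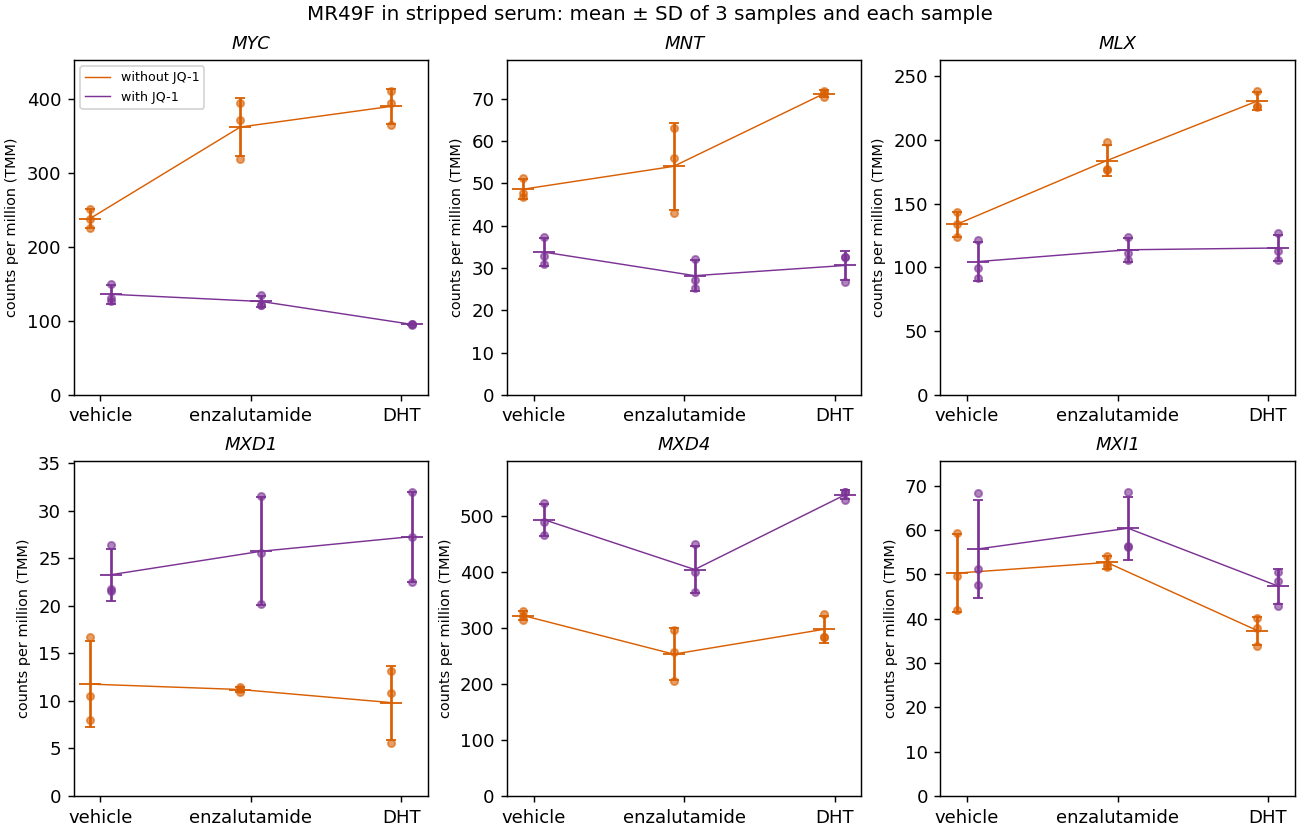
CPM (vertical axes) of 6 members in MR49F cells in stripped serum under vehicle, enzalutamide or DHT, without and with JQ-1, showing each sample and the mean with SD of 3 samples. For MYC the mean without JQ-1 goes from 238 with vehicle to 390.2 with DHT, and that with JQ-1 from 136 to 95.4.

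The fall of MYC under JQ-1 was larger with either ligand than without. The interaction of JQ-1 with enzalutamide was -0.72 ± 0.14 (edgeR adjusted p = 0.00299) for MYC, and that with DHT -1.24 ± 0.13 (edgeR adjusted p = 6.42e-10). By FPKM these were -0.64 ± 0.08 (limma adjusted p = 0.000188) and -1.14 ± 0.08 (limma adjusted p = 4.96e-07). Under JQ-1 the DHT samples of MYC lay below all samples with JQ-1 alone, and DHT lowered MYC there by 0.51 ± 0.10 (edgeR adjusted p = 3.06e-05) on counts and 0.57 ± 0.06 (limma adjusted p = 8.92e-05) on FPKM. Without JQ-1, DHT had raised it. The enzalutamide samples overlapped JQ-1 alone, with a value of -0.10 (edgeR adjusted p = 0.677) and a 95% interval of -0.29 to 0.09 by counts, and -0.06 ± 0.05 (limma adjusted p = 0.43) by FPKM.

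By counts MYC was the 1 member called in the interaction with enzalutamide, against 0.895% of all genes. In that with DHT 4 of 9 were called, against 12.3%, all with lower values where JQ-1 met DHT. By FPKM 2 and 7 were called, against 19.2% and 48%. With DHT, FPKM also called MAX lower and MXD1 and MXD4 higher, so 2 members were higher and 5 lower there. Beside MYC, the count calls with DHT were MLX at -0.67 ± 0.15 (edgeR adjusted p = 0.00102), MNT at -0.71 ± 0.21 (edgeR adjusted p = 0.0187) and MXD3, whose FPKM value was -0.50 ± 0.09 (limma adjusted p = 0.000766). DESeq2 did not call MNT (DESeq2 adjusted p = 0.13) or MXD3 (DESeq2 adjusted p = 0.127). MNT was lost without DHT plus JQ-1 replicate 2 or JQ-1 replicate 3 (edgeR adjusted p up to 0.073). By FPKM the MLX value was -0.19 ± 0.05 (limma adjusted p = 0.0126) and the MNT value -0.59 ± 0.09 (limma adjusted p = 0.000167). The count call of MXD3, -0.37 ± 0.12 (edgeR adjusted p = 0.0305), was lost without vehicle or JQ-1 replicate 1 or 2, DHT replicate 2 or DHT plus JQ-1 replicate 1 (edgeR adjusted p up to 0.143).

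With JQ-1 present, 2 members passed with enzalutamide and 2 with DHT by counts, against 4.5% and 22.1% of all genes, and 2 and 5 by FPKM, against 15.9% and 53.3%. MXD4 was lower with enzalutamide, at 364, 399 and 449 CPM against 466, 489 and 523. The groups did not overlap, and the change was -0.28 ± 0.06 (edgeR adjusted p = 0.000513) by counts and -0.31 ± 0.04 (limma adjusted p = 0.00252) by FPKM. MXD3 had count values of 0.28 ± 0.05 (edgeR adjusted p = 2.2e-05) and 0.28 ± 0.06 (edgeR adjusted p = 0.000207), and FPKM values of 0.04 ± 0.04 (limma adjusted p = 0.54) and 0.11 ± 0.05 (limma adjusted p = 0.0749).

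The MYC response to enzalutamide differed between the sera. In MR49F cells it was -0.10 ± 0.07 in full serum and 0.61 ± 0.10 in stripped serum on the log2 scale, and the interaction was 0.76 ± 0.12 (edgeR adjusted p = 9.07e-05). Without full serum vehicle replicate 1 it was 0.63 ± 0.09 (edgeR adjusted p = 9.41e-06), and by FPKM 0.63 ± 0.09 (limma adjusted p = 0.000416). MLX was the other member among the 2 called by counts, against 11.4% of all genes (4 by FPKM, against 34.1%), at 0.60 ± 0.11 (edgeR adjusted p = 0.000397), with an FPKM value of 0.20 ± 0.07 (limma adjusted p = 0.0537).

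Genes that MYC is known to activate, a list of 35 that is rich in ribosome assembly factors, moved upward with both ligands in stripped serum. With enzalutamide 11 of 31 tested rose and 0 fell by edgeR, against 4.38% of all genes higher. By FPKM 31 of 33 rose, against 19.3%. With DHT 25 of 31 rose, against 19.4%, and 29 of 33 by FPKM, against 28.9%. DESeq2 also called 0 lower with either ligand, and at an unadjusted p under 0.05 the edgeR count of lower genes was 0 with enzalutamide and 1 with DHT. The median log2 fold change of the list was 0.29 with enzalutamide and 0.67 with DHT, where the median of all genes was within 0.1 of 0.

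CAD, an enzyme of pyrimidine synthesis, rose by 0.64 ± 0.13 (edgeR adjusted p = 0.00372) with enzalutamide. NOP56, a protein of small nucleolar ribonucleoproteins, rose by 0.59 ± 0.09 (edgeR adjusted p = 0.000463). With DHT, the nucleolar protein NOP16 rose by 1.13 ± 0.14 (edgeR adjusted p = 4.73e-07) and SRM, spermidine synthase, by 1.13 ± 0.10 (edgeR adjusted p = 2.86e-09).

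With JQ-1 most of the list fell, 19 of 31 with JQ-1 alone, 23 of 30 on enzalutamide and 27 of 30 on DHT, against 23.9%, 23.2% and 28% of all genes. DESeq2 called 9 lower with JQ-1 alone. By FPKM 28, 31 and 32 of 33 fell, against 42.6%, 44.4% and 43.3%. Medians were -0.29, -0.61 and -0.84. On DHT, NOP16 fell by 2.01 ± 0.17 (edgeR adjusted p = 1.66e-12), the folate carrier SLC19A1 by 2.38 ± 0.24 (edgeR adjusted p = 1.47e-10) and the nucleolar protein MYBBP1A by 1.75 ± 0.10 (edgeR adjusted p = 1.83e-17). In the interaction of JQ-1 with DHT, 16 of 31 were lower, against 6.55% of all genes, and 29 of 33 by FPKM, against 23%.

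The single gene of the list that rose by counts in all 3 JQ-1 comparisons was ODC1, ornithine decarboxylase, which is also androgen-regulated and is named here after its values were seen. Its log2 fold changes were 1.08 ± 0.08 (edgeR adjusted p = 1.5e-15) with JQ-1 alone, 0.83 ± 0.09 (edgeR adjusted p = 5.76e-08) on enzalutamide and 1.31 ± 0.07 (edgeR adjusted p = 1.12e-17) on DHT. DHT raised ODC1 by 1.58 ± 0.09 (edgeR adjusted p = 1.05e-12) without JQ-1 and by 1.82 ± 0.05 (edgeR adjusted p = 1.04e-35) with it, where MYC fell.

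**Figure D4:**
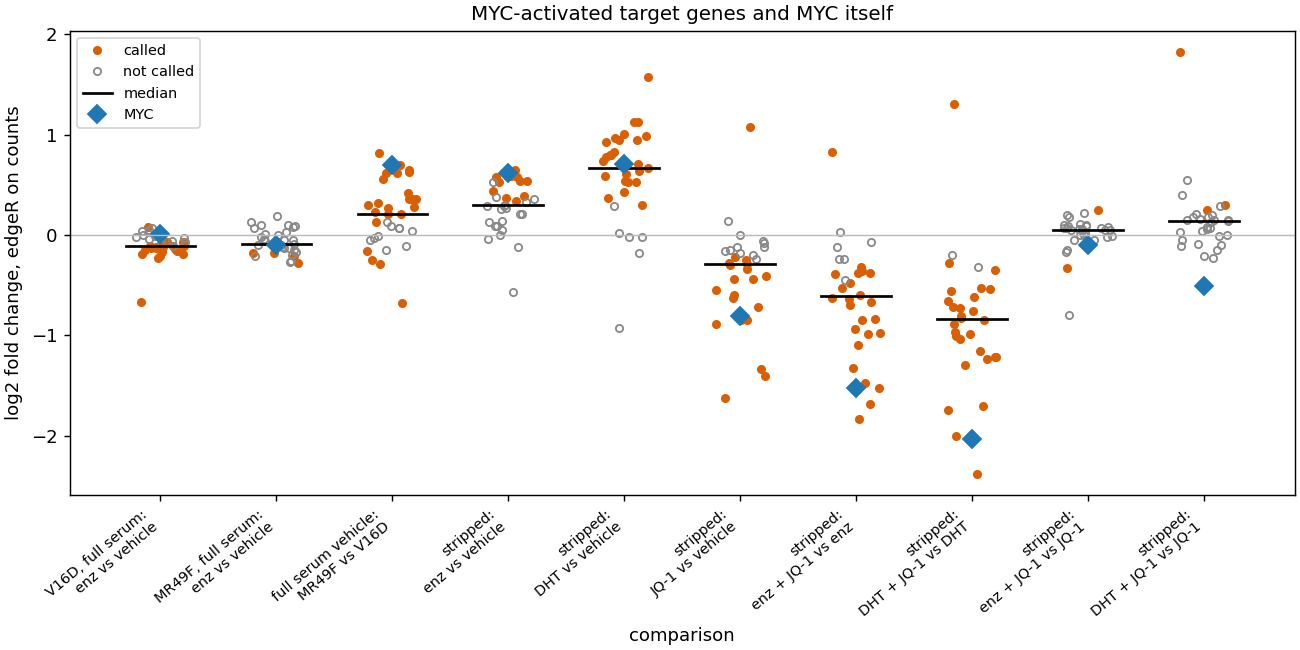
Log2 fold changes by edgeR on counts (vertical axis) of each tested MYC-activated gene in the comparisons on the horizontal axis, with called genes marked, a line at the list median and a diamond for MYC. The median is 0.67 with DHT and -0.84 with JQ-1 on DHT. In the columns for JQ-1 alone, on enzalutamide and on DHT, the called gene above 0 is ODC1.

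In full serum, genes of the list fell with enzalutamide in V16D cells, where MYC did not pass the test. There 19 of 33 genes fell and 1 rose by counts, against 19.3% of all genes lower, and by FPKM 7 fell, against 12.7%, while MYC had a log2 fold change of 0.01. The median was -0.11, and BOP1, a ribosome assembly factor, fell by 0.23 ± 0.04 (edgeR adjusted p = 9.71e-08). In MR49F cells, where MYC did not pass either, 4 of 33 fell with enzalutamide, against 4.62% of all genes, with 1 to 12 when any 1 sample was left out and the highest count without vehicle replicate 1. Between the lines, where MYC was higher in MR49F, 19 of 33 were higher there and 4 lower, against 31.9% and 31.8% of all genes, and the median was 0.21. BOP1 was higher by 0.82 ± 0.05 (edgeR adjusted p = 8.75e-08), and TFRC, the transferrin receptor, was lower with -0.68 ± 0.06 (edgeR adjusted p = 2.65e-06).

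The 10 genes known to be repressed by MYC were mixed. With JQ-1 alone 5 of 9 rose and 2 fell, against 22.8% and 23.9% of all genes, with 1 falling without JQ-1 replicate 1 or 2 or vehicle replicate 1. By FPKM 7 of 9 rose and 2 fell, against 32.5% and 42.6%. The stress gene GADD45A rose by 1.89 ± 0.23 (edgeR adjusted p = 3.5e-09) and the cell cycle inhibitor CDKN2B by 1.45 ± 0.35 (edgeR adjusted p = 0.00059), with 0.91 (limma adjusted p = 5.29e-06) by FPKM, while CEBPA, a differentiation factor, fell by 0.90 ± 0.19 (edgeR adjusted p = 7.85e-05). On DHT 6 of 10 rose with JQ-1 and 4 fell, against 26.7% and 28% of all genes, and by FPKM 6 of 9 rose and 3 fell, against 35.5% and 43.3%. There GADD45A rose by 2.82 ± 0.25 (edgeR adjusted p = 8.39e-12). With DHT itself, NDRG1, which is also androgen-induced, rose by 3.31 ± 0.10 (edgeR adjusted p = 2.51e-18), and in V16D cells it fell with enzalutamide by 2.25 ± 0.05 (edgeR adjusted p = 5.13e-238).

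TXNIP and ARRDC4, arrestin-family genes activated by MLX with its partners, rose under JQ-1 while MLX fell. TXNIP went from a mean of 157 CPM with vehicle to 690.1 with JQ-1 with a log2 fold change of 2.14 ± 0.08 (edgeR adjusted p = 1.97e-27), and ARRDC4 from 26.9 to 91.5, with 1.79 ± 0.15 (edgeR adjusted p = 6.72e-14). On enzalutamide and on DHT, JQ-1 raised TXNIP by 2.46 ± 0.10 (edgeR adjusted p = 1.22e-16) and 2.35 ± 0.10 (edgeR adjusted p = 2.11e-21). Without JQ-1, TXNIP fell by 0.74 ± 0.12 (edgeR adjusted p = 0.000399) with enzalutamide and 0.90 ± 0.11 (edgeR adjusted p = 3.9e-07) with DHT, where MLX was higher by counts. For TXNIP the FPKM values were 2.02 (limma adjusted p = 1.83e-09) with JQ-1 alone, -0.67 (limma adjusted p = 6.85e-06) with enzalutamide and -0.98 (limma adjusted p = 4.5e-08) with DHT. SIN3A, the corepressor scaffold used by MXD proteins, rose with JQ-1 alone by 0.43 ± 0.09 (edgeR adjusted p = 0.000104). This list of 8 symbols holds MLX partners, targets and corepressors, and also MYCL1 with its other symbol MYCL, which the data lack. Of its symbols, 3 of 7 tested rose with JQ-1 alone, against 22.8% of all genes, and 5 of 7 by FPKM, against 32.5%.

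Cofactors and turnover factors of MYC, 20 in all with 19 tested, held genes that rose and genes that fell. With JQ-1 alone 6 rose and 3 fell, against 22.8% and 23.9% of all genes. On DHT 5 rose and 7 fell, against 26.7% and 28%, which puts the rising share beside that of all genes. By FPKM 8 of 20 rose and 6 fell with JQ-1 alone, against 32.5% and 42.6%. KAT2A, an acetyltransferase of MYC complexes, fell by 1.09 ± 0.12 (edgeR adjusted p = 1.34e-10) with JQ-1 alone, 1.43 ± 0.14 (edgeR adjusted p = 3.11e-09) on enzalutamide and 1.27 ± 0.12 (edgeR adjusted p = 3.1e-11) on DHT. RUVBL1, an ATPase cofactor of MYC, rose with DHT by 0.68 ± 0.11 (edgeR adjusted p = 1.38e-05). KIAA1524, which protects MYC from dephosphorylation, was lower in MR49F than in V16D with -1.20 ± 0.07 (edgeR adjusted p = 3.52e-08).

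Over the 18 stripped serum samples and 8512 genes, those whose log2(FPKM + 1) was most like that of MYC were PAXIP1 (Pearson r of 0.991), GLT25D1 (0.991), ORC2 (0.991), RECQL4 (0.99) and CYB5D1 (0.989). Among the members MNT (0.939) and MLX (0.891) came closest, and MXD3 had 0.843, MAX 0.801, MGA 0.595 and MXI1 0.115. MXD4 ran opposite, at -0.922. Ranked by r from the highest, MNT was at 541, MLX at 1213, MXD3 at 1686, MAX at 2028 and MXD4 at 8132. Many genes outside the network thus lay closer to MYC than any member. MXD1 was too low to be included. The samples share treatments within groups, and these values are descriptions without a test.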

How the data were processed

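Poly(A) RNA of 30 samples was sequenced with a strand-specific kit as 50-base single-end reads. According to the study's methods and the submitters' processing notes, the authors aligned reads to hg19 with TopHat2 2.0.9, made the deposited counts per gene with HTSeq and the deposited FPKM values per transcript with Cufflinks 2.1.1. How strand was treated in counting is not given in the sources used here. Samples were grouped by the labels. Counts were tested in edgeR 4.0.16 (R 4.3.3, TMM, filterByExpr with a minimum count of 10 and total of 15) by the quasi-likelihood test, with only the compared groups in each fit and an adjusted p of at most 0.05 as a call. FPKM was summed per symbol and tested with limma 3.58.1 on log2(FPKM + 1) for genes with at least 1 FPKM in 3 samples, a scale that understates changes of low genes. Where counts per FPKM differed by over 4 times from the median gene between the sera, FPKM is given first. For edgeR the standard error of a log2 change is its absolute value over the square root of the test's F statistic. The 95% intervals use a normal quantile of this error, which makes them too narrow for groups of 3. The 15 comparisons were recomputed with DESeq2 1.42.0, other filters, scalings and pseudocounts, an equal-variance two-group test, the replicate number as a block, and each sample left out. Scripts were tested on simulated data. Members and gene lists were chosen with earlier results of these data known. From each list the text names at most 3 genes per comparison, those with the largest called change, no overlap between groups and at least 5 CPM in the higher group. Stripped serum samples have fewer counted reads, so their low genes are less precise.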

Additional observations from a re-analysis of the deposited data

Results flagged for a closer look

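Differences between effects were tested as edgeR interactions, and 8 values for members passed. MXI1 responded less to enzalutamide in MR49F than in V16D cells (-0.358 on the log2 scale). The effect of JQ-1 on MYC differed with enzalutamide (-0.722) and with DHT (-1.24) from that without ligand. With DHT the same interaction passed for MXD3 (-0.372 by counts, which may not follow that gene), MNT (-0.705) and MLX (-0.667). The effect of enzalutamide in MR49F cells differed between stripped and full serum for MYC (0.758) and MLX (0.602 by counts, not called by FPKM), where serum, plating and vehicle cannot be told apart. Groups of 3 are too small for a test of single outlying samples.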

How the results depend on the processing

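The number of members called was recomputed under each alternative, for interactions without the equal-variance two-group test. For V16D enzalutamide (2) it was 1 with all groups in one fit, 1 with DESeq2 and 1 with each limma setting. For MR49F enzalutamide in full serum (0) it was 2 with all groups in one fit, and for the line interaction (1) it was 2 without a count filter. For enzalutamide in stripped serum (2) it was 4 without a count filter, 4 with the replicate block, 4 with limma at a pseudocount of 1 or 0.1, and 0 with the equal-variance two-group test. That test gave 3 for DHT (5), 0 for DHT against enzalutamide (3), 3 for JQ-1 alone (6, and 4 with DESeq2), 0 for enzalutamide under JQ-1 (2) and 1 for DHT under JQ-1 (2). Members removed by its variance filter were not tested and count as not called in these numbers. For DHT against enzalutamide DESeq2 gave 1 and limma 5 in each setting. Enzalutamide under JQ-1 gave 0 with all groups in one fit. For DHT under JQ-1 limma gave 5, 5 and, without a filter, 4. For the JQ-1 interactions limma gave 2 with enzalutamide (1) and 7 with DHT (4), where DESeq2 gave 2, and for the serum interaction (2) limma gave 4. Some signs turned by FPKM. MXD3 between the lines had 0.41 (0.42 with a pseudocount of 0.1) by limma and 0.41 by the equal-variance test, MAX with JQ-1 on enzalutamide had -0.23 (-0.24), and MXD3 in the JQ-1 by enzalutamide interaction -0.25 (-0.26). The causes were not tested.

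With 1 sample left out, counts ran from 1 to 3 for V16D enzalutamide, 0 to 2 for MR49F enzalutamide, 6 to 7 between lines, 1 to 2 for the line interaction, 1 to 3 and 4 to 5 for enzalutamide and DHT in stripped serum, 0 to 3 for DHT against enzalutamide, 5 to 6, 6 to 6 and 6 to 7 for JQ-1 alone, on enzalutamide and on DHT, 2 to 2 for each ligand under JQ-1, 1 to 1 and 3 to 4 for the JQ-1 interactions and 2 to 3 for the serum interaction. Same-numbered samples did not deviate together in every pair (r of -0.0689 to 0.0272 in V16D, -0.0317 to 0.187 in MR49F full serum and -0.209 to 0.214 in stripped serum, with a mean of 0.0914 in MR49F full serum against -0.0441 for different numbers). Of 6, 6 and 18 samples, 2, 3 and 7 deviated most like their own number, so the numbers were not taken to pair samples. Under the replicate block 131 of 135 member values kept their call and direction, 2 gained and 2 lost a call. Depth limits low members, above all MXD1 in stripped serum.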
